A study of Mus musculus with 72 samples.

Results

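SOX2 binding was examined in mouse embryonic stem cells (ESCs) that carry both HMGN1 and HMGN2 (Hmgn1+/+n2+/+, WT) and in ESCs that lack both proteins (Hmgn1-/- n2-/-, DKO). The SOX2 ChIP-seq of these cells comprised 4 peak lists, 2 of WT and 2 of DKO cells, out of 64 lists in the series, of which 20 came from ESCs. All groups were labelled C57BL/6, no further allele or treatment was given, and the sources used here do not say how many cell lines or clones were grown per genotype. The 4 lists held 53864 of the 1156918 peaks of the series, and peaks that overlapped by at least 1 bp were merged into 20747 sites. Sites were described by the libraries that called them: shared sites were called in all 4 libraries, DKO-only sites in both DKO and in neither WT library, and WT-only sites in both WT and in neither DKO library.

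SOX2 is a transcription factor with an HMG box, which binds the minor groove of DNA and bends it. In ESCs it acts together with OCT4 (encoded by Pou5f1) and NANOG in the circuit that maintains pluripotency, and SOX2 and OCT4 often occupy a composite element in which a SOX site lies next to an octamer-like element. HMGN proteins are unrelated to the HMG box family in spite of the name, and bind nucleosomes, with a preference for the chromatin of enhancers and promoters.

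The following 61-base sequences, read on the plus strand of mm9 and centred on the peak summit, show the kind of DNA that SOX2 peaks covered, and were chosen as the core pluripotency loci and as the strongest or motif-bearing sites of each class. Capitals mark a match to the SOX motif (ACAAAG or ACAATG) or to the composite SOX-OCT motif (TTGTNATG, a SOX core joined to the start of an octamer), an octamer match (ATGCAAAT), or overlapping matches, each read on either strand.
Sox2, shared site 3.8 kb downstream of the gene's 5′ end, chr3:34552949-34553009: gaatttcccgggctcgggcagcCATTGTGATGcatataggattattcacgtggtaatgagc
Nanog, shared site at the promoter, chr6:122657434-122657494: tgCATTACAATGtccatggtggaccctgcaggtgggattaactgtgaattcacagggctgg
Pou5f1, shared site 15.3 kb upstream, chr17:35627513-35627573: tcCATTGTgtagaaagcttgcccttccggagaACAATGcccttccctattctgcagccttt
Abca4 intron, strongest shared site, chr3:121848471-121848531: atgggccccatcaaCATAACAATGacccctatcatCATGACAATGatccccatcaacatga
Nr1h4 intron, DKO-only site, chr10:88933798-88933858: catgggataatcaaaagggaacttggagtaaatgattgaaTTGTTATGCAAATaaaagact
Rgs9, DKO-only site 7.55 kb from the nearest transcript start, chr11:109167143-109167203: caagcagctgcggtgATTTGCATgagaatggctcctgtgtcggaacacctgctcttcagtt
Nearest to Rbfox1, WT-only site, chr16:6479335-6479395: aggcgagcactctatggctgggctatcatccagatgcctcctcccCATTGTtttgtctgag
The Sox2, Nanog, Abca4 and Nr1h4 sites held a composite match, and in the Nr1h4 intron it ran on into a complete octamer. The sites near Rgs9 and Rbfox1 held an octamer and a SOX match, respectively.

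More SOX2 peaks were called in DKO than in WT ESCs. WT replicates 1 and 2 had 10324 and 10222 peaks (mean 10273 ± 72.1, SD, n = 2), and DKO replicates 1 and 2 had 16174 and 17144 (16659 ± 686), so the groups did not overlap. The difference was 0.70 on the log2 scale (SE 0.05), which is 1.62-fold with a 95% interval of 1.45 to 1.82 (limma over the 16 antibodies of the series, adjusted p = 0.00359). Peaks within 1000 bp of a protein-coding start site were 385 and 382 for WT and 700 and 819 for DKO, a 1.97-fold rise (log2 0.98, SE 0.11, adjusted p = 0.00624, limma). Distal peaks rose 1.61-fold (log2 0.68, SE 0.05, adjusted p = 0.00263, limma), from 9939 and 9840 to 15474 and 16325. In each of these measures 3 of the 16 antibodies (18.8%) were called higher in DKO, namely OCT4, SOX2 and NANOG. Klf4, the other pluripotency factor among the ESC lists, was not called (log2 0.19 in peak number, adjusted p = 0.471, limma). The promoter rise of SOX2 exceeded the distal rise by 0.30 (SE 0.07, adjusted p = 0.039, limma), a difference also called positive for 4 further antibodies (5 of 16, 31.2%), and it was not past the threshold with any single library left out (0.22 to 0.37). Peaks covered 2.95 and 3 Mb in WT and 5.02 and 5.22 Mb in DKO.

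The DKO libraries were sequenced more deeply, and the difference in peak number was nearly as large at equal ChIP depth. Numbers of reads stacked at each summit, solved from the deposited fold enrichment and p, put the depth of WT replicate 2 at 1.01 times and that of DKO replicates 1 and 2 at 1.10 and 1.35 times that of WT replicate 1. After thinning all libraries to the depth of the shallowest and applying 1 threshold on −log10 p, the difference in peak number was 0.68 (SE 0.05, adjusted p = 0.00304, limma). The input DNA against which peaks were called was not thinned, and its estimated depth was 16.6 M reads for both WT and 21.2 M reads for both DKO libraries. At full depth and without WT replicate 1, the difference in peak number was 0.70 and not past the threshold. The study calls its replicates biological, and neither it nor the labels say whether they were separate cultures, so p-values measure the spread between these libraries. In bulk chromatin, SOX2 at a site in more cells and more frequent binding in each cell cannot be told apart. An exact permutation test of 2 libraries against 2 cannot give a p below 0.333. No SOX2 peak lay within 1 kb of Hmgn1 or Hmgn2 in any library, so the peak lists do not check the deletion.

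**Figure D1:**
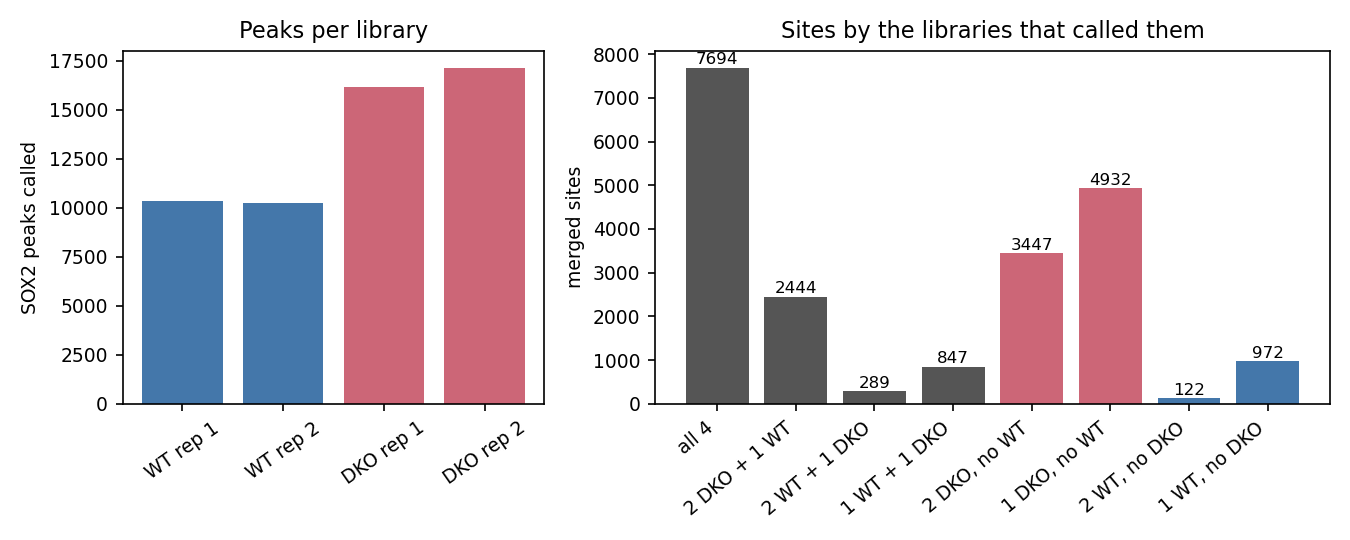
The left panel shows the number of SOX2 peaks called in each library (WT in blue, DKO in red), and the right panel the number of merged sites by the libraries that called them (grey for both genotypes, red for DKO alone, blue for WT alone). Both DKO bars stand above both WT bars, and 3447 sites were DKO-only against 122 WT-only.

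The WT SOX2 sites were nearly all found again in DKO ESCs, whereas the reverse was not so. Of 8105 sites called in both WT libraries, 94.9% were called in both DKO libraries, 3.57% in 1 and 1.51% in neither. Of 13585 sites called in both DKO libraries, 56.6% were called in both WT libraries, 18.0% in 1 and 25.4% in neither. This gave 7694 shared sites (37.1% of all), 3447 DKO-only sites (16.6%) and 122 WT-only sites (0.588%). The other sites were 2444 called in both DKO and 1 WT library, 289 in both WT and 1 DKO library, 847 in 1 library of each genotype, 4932 in a single DKO library and 972 in a single WT library. Overlaps between libraries showed the same asymmetry, since 89.7% to 91.5% of the sites of a WT library were called in a DKO library and 54.5% to 57.2% of those of a DKO library in a WT library. Between libraries of 1 genotype the share was 78.8% and 79.6% in WT and 84.2% and 79.5% in DKO.

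The class sizes depend on the lengths of the lists. Taking the same number of top peaks by −log10 p from each library, which by construction brings the class sizes of the genotypes together, left 6645 shared, 808 DKO-only and 667 WT-only sites. Leaving out 1 library, which lowers the number of calls a class needs, gave 4641 to 6274 DKO-only and 227 to 622 WT-only sites. Thinning to equal depth left 3365 DKO-only and 126 WT-only sites.

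Most SOX2 sites were far from promoters in every class. Within 1000 bp of a start site lay 3.89% of the shared sites (95% Wilson interval 3.48 to 4.34), 4.53% of the DKO-only sites (3.88 to 5.27) and 6.56% of the WT-only sites (3.36 to 12.4, 8 sites), and these intervals overlapped. Sites of a single DKO library had a promoter share of 7.30% (6.61 to 8.06), above those of the shared and DKO-only sites, and the share over all sites was 4.87%. The intervals count each site as independent and leave out the spread between libraries, although sites are not replicates. Without DKO replicate 1, where 1 DKO call suffices, the DKO-only share was 6.15%, outside its interval. Introns held 39.7%, 43.3% and 42.6% of shared, DKO-only and WT-only sites, and intergenic DNA held 58.7%, 54.7% and 56.6%. The median distance to a start site was 31652 bp, 26718 bp and 45181 bp. Median widths of the merged sites were 399 bp, 273 bp and 253 bp. Shared sites were the broadest, but each joins peaks of all 4 libraries, which widens it by construction. Single peaks had median widths of 259 to 282 bp by library.

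Shared sites were also the strongest, and their strength was higher in DKO. MACS2 fold enrichment is the ratio of the reads stacked at the summit to a local background, with 1 added to each. At the 7694 shared sites its median was 8.24 and 8.15 in WT replicates 1 and 2 and 10.5 and 11.1 in DKO, so that both DKO libraries stood above both WT libraries. The difference of these medians was 0.40 on the log2 scale (SE 0.04), 1.32-fold with a 95% interval of 1.22 to 1.42 (adjusted p = 0.00242, limma over 16 antibodies), and OCT4 and SOX2 were the antibodies called higher (2 of 16, 12.5%). Without WT replicate 1 or 2 the adjusted p was 0.0569 or 0.0607. DKO-only sites had medians of 5.84 and 6.09 in DKO, and WT-only sites 5.77 and 5.60 in WT. Over whole lists the medians were 7.16 and 7.08 in WT and 7.08 and 7.13 in DKO. The share of DKO-only sites fell with strength, from 52.0% of the sites called in both DKO libraries with a mean DKO fold enrichment under 5 to 2.40% of those at 10 or more. A site has to pass the calling threshold in every list to be shared. Weak sites therefore tend to leave the shared class by its definition, and the order of the classes in strength is no separate result. The lowest −log10 q of a list was between 2 and 2.07.

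Tested site by site, many shared sites were higher in DKO by fold enrichment and few were lower. Of 7694 shared sites, 2305 were higher (30.0%) and 312 lower (4.06%) in DKO (limma across sites, adjusted p under the threshold of 0.05). Without DKO replicate 2, 1523 were higher and 203 lower, and without DKO replicate 1, 161 were lower. With each library centred on its own median, 823 were higher and 1011 lower. The reads stacked at the summit, divided by the genome-wide background of the library, gave 1594 higher (20.7%) and 12 lower sites (0.156%) (limma across sites, a measure chosen after the data were seen). By this measure 7048 of the 7694 sites (91.6%) were higher in DKO, the median difference was 0.38 (quartiles 0.20 and 0.55), and at 69.8% both DKO libraries stood above both WT libraries. Median summit reads over background were 22.7 and 22.4 in WT and 29.3 and 30.3 in DKO.

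The rise in summit reads was spread over kinds of site. It was 0.39 at shared promoter sites and 0.38 at distal ones, 0.41 with a composite motif and 0.37 without, and 0.38 where all 4 OCT4 lists had a peak against 0.36 where none had. By quartile of mean summit reads, from weakest to strongest, the median difference was 0.28, 0.39, 0.43 and 0.39. Sites on the X chromosome rose by a median of 0.35.

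**Figure D2:**
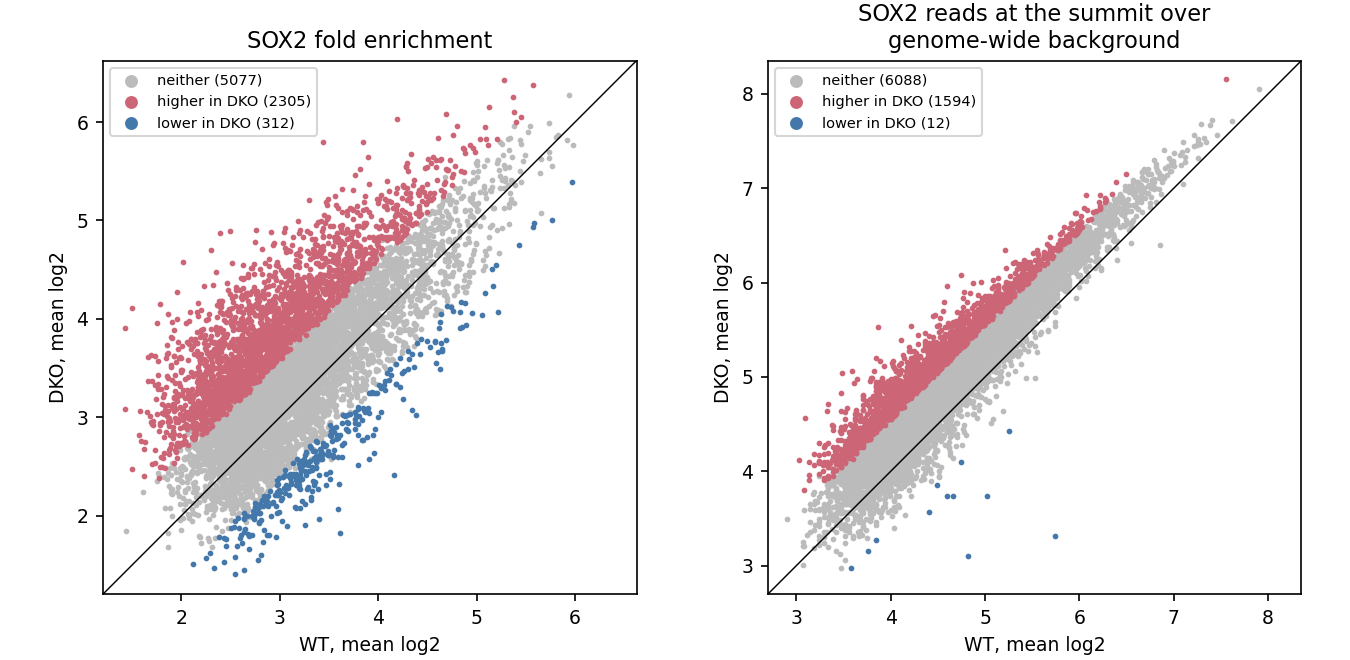
Each point is 1 of the 7694 shared SOX2 sites, plotted as its mean log2 value in WT (horizontal axis) and DKO (vertical axis), for fold enrichment at the left and for summit reads over genome-wide background at the right. Red and blue points passed the threshold as higher and lower in DKO, and the line marks equal values. By fold enrichment the cloud is wide and 312 sites are lower, and by summit reads it is narrow, lies above the line and has 12 lower sites.

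The measures disagreed at single sites in step with the local background, the estimate that MACS2 takes from input DNA around a peak. Among the shared sites 817 were called higher by both measures, and of the 312 that were lower by fold enrichment 4 were lower and 14 higher by summit reads. At those 312 sites the median local background, in multiples of the library's lowest, was 1.47 and 1.47 in WT and 3.81 and 3.91 in DKO. Their median summit reads were 22.0 and 21.8 in WT and 23.6 and 24.1 in DKO. At the 2305 sites higher by fold enrichment the background was 2.93 and 3.13 in WT and 1.90 and 1.96 in DKO, and summit reads were 24.7 and 23.7 in WT and 34.5 and 35.1 in DKO. Across the 7694 sites the change of fold enrichment had a Pearson r of -0.88 with the change of background and of 0.41 with the change of summit reads. These correlations describe sites that share 4 libraries, and fold enrichment contains the background by construction.

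Local backgrounds were alike within a genotype and unlike between genotypes. Their r over shared sites was 0.91 between WT libraries, 0.93 between DKO libraries and 0.39 to 0.40 between genotypes, whereas summit reads had an r of 0.91, 0.94 and 0.90. NANOG lists, which covered nearly all SOX2 sites, had backgrounds that correlated with those of the SOX2 lists of their genotype (r 0.91 to 0.93, n = 7546) and less with those of the other genotype (0.38 to 0.40). Which input served which library is not given in the sources used here, and at single sites the values can differ, as near Ednrb, where the WT background was 7.09 and 6.89 in the SOX2 lists and 3.42 and 3.42 in the NANOG lists. The NANOG values were used as a stand-in where SOX2 was called in 1 genotype only. A background could be solved in all 4 NANOG lists at 3195 of the 3217 DKO-only sites with NANOG peaks in all 4, where it was 2.37 and 2.37 in WT and 1.94 and 2 in DKO, lower in DKO at 69.8% of sites. At 113 of the corresponding 114 WT-only sites it was 1.40 and 1.37 in WT and 2.82 and 2.73 in DKO, higher in DKO at 91.2%. Over all sites it was lower in DKO at 50.3%. The membership of a site in the DKO-only or WT-only class thus moved with the background, and the part of that background in the class was not tested.

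**Figure D3:**
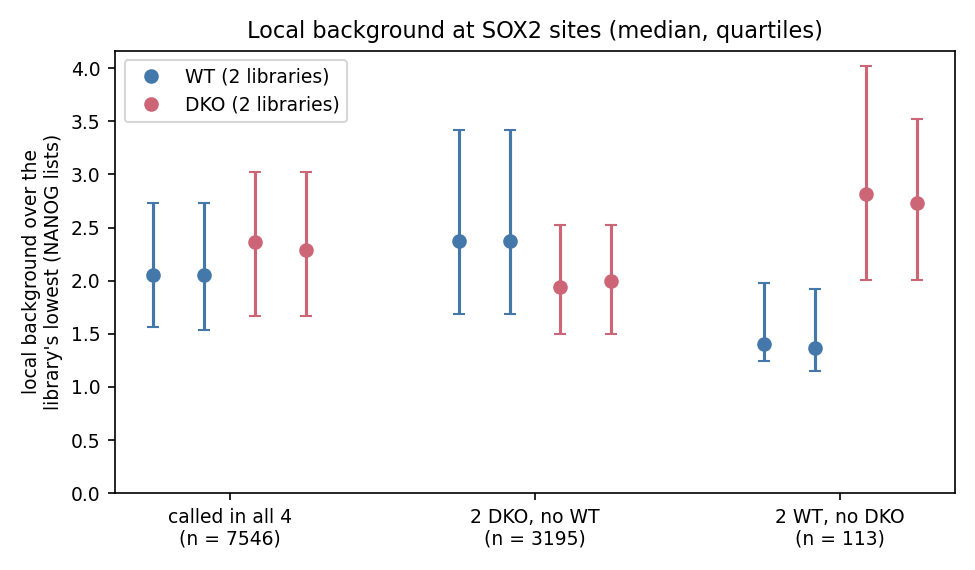
Points give the median local background, in multiples of each library's lowest and read from the NANOG lists, at shared, DKO-only and WT-only SOX2 sites where it could be solved in all 4 NANOG lists, for WT (blue) and DKO (red) libraries. Bars span the quartiles. The medians are 2.05 in WT and 2.36 and 2.29 in DKO at shared sites, higher in WT at DKO-only sites and higher in DKO at WT-only sites.

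SOX motifs were found at most SOX2 summits. Within 100 bp of the summit a SOX match lay at 65.3% of shared, 58.4% of DKO-only and 56.6% of WT-only sites, against 26.3%, 26.5% and 27.9% in windows of the same length 5000 bp away. Composite SOX-OCT matches lay at 16.8%, 10.2% and 6.56% (flanks 3.21%, 3.02% and 1.64%), and octamer matches, some of which overlap a composite match, at 7.68%, 6.70% and 9.02% (flanks 1.2%, 1.22% and 2.46%). Among shared sites the composite share climbed with strength, from 7.72% at a mean DKO fold enrichment under 5 through 10.3% (5 to 7) and 14% (7 to 10) to 20.4% (10 or more). DKO-only sites had 7.72%, 10.8%, 11.1% and 10.8% in the same bins. Below a fold enrichment of 7 the classes thus had like composite shares, and above it the shared sites had the higher share. The bin of 7 to 10 held 828 DKO-only and 1996 shared sites, and that of 10 or more held 111 and 4281. The latter has no upper limit, so strength is not matched within it. Composite matches lay at a median of 31.5 bp from the summit of shared sites and 32.5 bp from that of DKO-only sites.

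**Figure D4:**
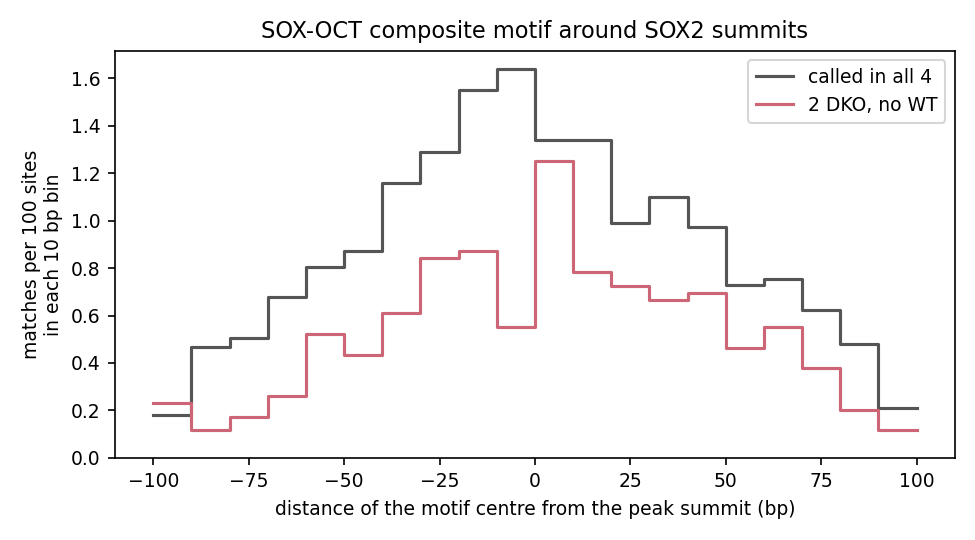
Lines give the number of composite SOX-OCT matches per 100 sites in bins of 10 bp of distance from the SOX2 summit, for shared (grey) and DKO-only sites (red). Both lines are highest near the summit, and the line of the shared sites, 16.8% of which held a match, lies above that of the DKO-only sites, with 10.2%, in nearly all bins.

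Nearly every SOX2 site was also a NANOG site, and many were OCT4 sites in DKO. Peaks in both NANOG libraries of WT overlapped 99.8% of shared, 93.6% of DKO-only and 97.5% of WT-only sites, and those of DKO 99.9%, 98.8% and 94.3%. OCT4 peaks in both WT libraries overlapped 45.8%, 15.2% and 18.9%, and those in both DKO libraries 70.0%, 38.0% and 34.4%. Of the 122 WT-only SOX2 sites, 23 thus overlapped OCT4 peaks of WT and 42 those of DKO. Over all SOX2 sites the OCT4 shares were 25.9% in WT and 47.7% in DKO. The OCT4 lists were themselves 2.42-fold longer in DKO, so overlap with them can rise in every class. Klf4 peaks overlapped 17.4% of shared and 6.01% of DKO-only sites in WT, and 19.3% and 7.22% in DKO. CTCF, the insulator protein, overlapped 3.34% to 4.21% of the sites of these classes in either genotype.

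Summit reads of the other factors at the same sites differed between genotypes for OCT4 and little for NANOG. Sites merged from the 4 OCT4 lists were tested on their own, and those that overlapped a SOX2 class were counted. OCT4 summit reads were higher in DKO at 93.7% of the 3525 OCT4 sites at shared SOX2 sites, at 477 of 535 at DKO-only sites (89.2%) and at 18 of 21 at WT-only sites (85.7%), against 82.6% of all 9434 OCT4 sites tested, of which 0.360% were lower (limma across sites). The median OCT4 difference was 0.84 at shared and 0.79 at DKO-only sites. For NANOG 5 of 39293 NANOG sites were higher (0.0127%) and 19 lower (0.0484%), and the median differences were -0.08 at shared, 0.02 at DKO-only and -0.14 at WT-only sites. DKO-only SOX2 sites carried NANOG summit reads of 34.3 and 33.3 in WT and 34.3 and 34.6 in DKO. At shared sites NANOG had 79.6 and 78.4 in WT and 75.7 and 74.4 in DKO.

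SOX2 occupied its own locus and those of its partner factors in both genotypes. Within 150 kb of the 5′ end, Sox2 had 16 sites (10 shared, 2 DKO-only), Pou5f1 9 (5 shared, 1 DKO-only) and Nanog 14 (8 shared, 4 DKO-only), and none of these was WT-only. The Sox2 site 3.8 kb downstream (chr3:34552702-34553187, intergenic) had a fold enrichment of 8.51 and 8.59 in WT and 22.6 and 19.6 in DKO, a log2 difference of 1.30 (adjusted p = 0.00155, limma). Its summit reads were 43.4 and 37.2 times the WT background and 66.1 and 50.5 times the DKO background (log2 0.53, adjusted p = 0.0681, limma). Both DKO libraries stood above both WT libraries in each measure, and only the first passed the threshold. The local background there fell from 4.51 and 3.76 in WT to 2.38 and 2.11 in DKO. At the 5′ end of Sox2 a DKO-only peak that overlaps the UTR (chr3:34548821-34549101) had fold enrichments of 5.25 and 4.92.

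The distal cluster downstream of Sox2 held strong shared sites. Its peak 95.1 kb downstream (chr3:34644005-34644572) had a fold enrichment of 9.05 and 8.96 in WT and 14.6 and 22.6 in DKO (log2 1.01, adjusted p = 0.0103, limma), while summit reads over background were 52, 50, 56.3 and 54.9 (log2 0.12, adjusted p = 0.589). The sites 106.4, 107.9 and 111.1 kb downstream had fold enrichments between 9.35 and 21.3, and their WT and DKO values overlapped or touched. None of these 3 passed the threshold by either measure.

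Of the 4 shared sites upstream of Pou5f1 within 150 kb, 2 rose by summit reads, as did the site at the Nanog promoter. Over all shared sites 20.7% were called higher by this measure. The site 1.7 kb upstream of Pou5f1 (chr17:35640831-35641293), which held a SOX and a composite match and peaks of OCT4 and NANOG in both libraries of each genotype, had 72.1 and 67.3 in WT and 102 and 102 in DKO (log2 0.55, adjusted p = 0.0472, limma). Its fold enrichment was 16 and 12 in WT and 19.2 and 23.4 in DKO (log2 0.61, adjusted p = 0.06). The site 15.3 kb upstream, with 2 SOX matches and no OCT4 peak, rose from 25.4 and 25.6 to 44.8 and 39.5 (log2 0.72, adjusted p = 0.0252, limma). Its fold enrichment was 11.4 and 11.7 in WT and 13.7 and 12.4 in DKO (log2 0.18, adjusted p = 0.513, limma), with a local background of 1.61 and 1.61 in WT and 2.73 and 2.73 in DKO. The other 2 passed by neither measure. At 3.0 kb upstream summit reads differed by 0.50 (adjusted p = 0.0942, limma), and at 19.9 kb by 0.34 (adjusted p = 0.17), where the fold enrichment was 10.7 and 11.3 in WT and 8.94 and 8.54 in DKO (log2 -0.33, adjusted p = 0.224). At the Nanog promoter (chr6:122657227-122657650) summit reads were 25.4 and 21.8 in WT and 37.4 and 39.9 in DKO (log2 0.72, adjusted p = 0.0264, limma), and fold enrichment rose by 0.92 (adjusted p = 0.00773). At the 2 Pou5f1 sites that rose and at the Nanog promoter, both DKO libraries stood above both WT libraries in both measures. The shared site 57.8 kb downstream of Pou5f1 did not pass by summit reads (log2 0.23, adjusted p = 0.336, limma), nor did any shared site within 150 kb of Sox2. Around Nanog the shared sites 116.0 kb upstream (0.61, adjusted p = 0.0372) and 58.6 kb downstream (0.59, adjusted p = 0.0472) passed as well, and the others did not.

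**Figure D5:**
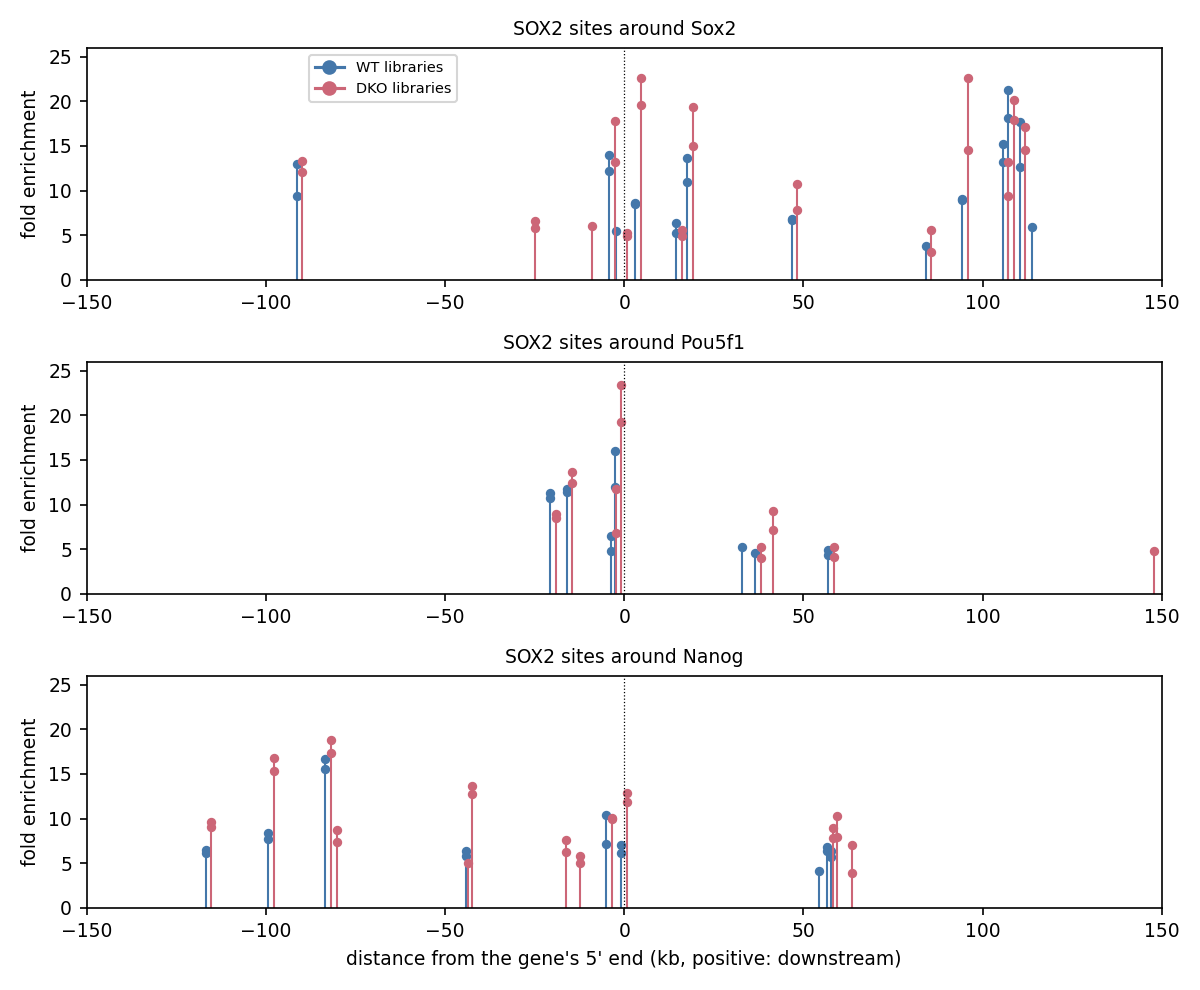
Fold enrichment of each SOX2 site within 150 kb of the 5′ end of Sox2, Pou5f1 and Nanog, by its distance from that end in kb, with WT libraries in blue and DKO libraries in red and each colour shifted slightly to its side so that both can be seen. Points are single libraries that called the site, stems reach the higher of them, and the Sox2 site 3.8 kb downstream shows DKO points of 22.6 and 19.6 above WT points of 8.51 and 8.59.

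Nearly all genes of the naive pluripotency network, the factors that keep ESCs in their ground state, carried SOX2 sites. Within the gene body extended by 10 kb on each side, 20 of 22 had a site and 16 a shared site, beside 34.0% and 16.1% of 22225 protein-coding genes. They held 74 sites (35 shared, 15 DKO-only, 0 WT-only), or 3.36 per gene beside 0.641 over all genes. Counts for this and the later gene lists were not adjusted for gene length, and longer genes have more room for sites. Of the 35 shared sites 8 were higher by summit reads (background 20.7%) and 0 lower, 32 had a higher mean in DKO, and the median difference was 0.41 against 0.38 over all shared sites. By fold enrichment 7 were higher and 1 lower, beside 30.0% and 4.06% of all shared sites.

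Esrrb, an orphan nuclear receptor, had most sites of the network, 10 in all with 3 shared and 3 DKO-only, and its strongest reached a fold enrichment of 25.6 and 24.6 in WT and 34.8 and 31.3 in DKO. Jarid2, a Polycomb partner, had 9 sites (strongest 14.8 and 14.3 in WT, 16.1 and 15.1 in DKO), and Dppa5a had 8 (13.4 and 15.7 against 17.9 and 19.1). The DNA demethylases Tet1 and Tet2 had 7 and 6, and the strongest of Tet2 had 18.5 and 16.5 against 19.1 and 16.8. Tbx3, a T-box factor, had 1 site 454 bp from a start, with 12.9 and 11.8 in WT and 29.9 and 25.7 in DKO. Klf2 had 20.2 and 22.4 in WT and 30.6 and 35.6 in DKO. Prdm14 had 16.3 and 14.2 in WT and 22.6 and 17.5 in DKO. Values of these 3 were higher in both DKO libraries. In Tet1 the strongest site was DKO-only, 552 bp from a start, with 7.21 and 7.95. Klf4 itself had 1 site, DKO-only, with 4.56 and 5.66. At Dppa4 (6.17 and 5.53 against 5.59 and 6.05) and Tdgf1, a NODAL co-receptor (7.69 and 6.14 against 4.72 and 7.11), WT and DKO values overlapped. So they did at Rif1, a telomere-associated protein (17.1 and 15.3 against 16.9 and 23.2), and at Mycn, a MYC family factor (9.67 and 10.8 against 9.31 and 17.0). Nr5a2 (10.2 and 9.96 against 13.4 and 13.8) and Dppa3 (15.6 and 16.7 against 17.3 and 18.8) were higher in both DKO libraries. The nuclear receptor Nr0b1 (10.8 and 8.98 against 11.2 and 15.8) and the zinc finger factor Sall4 (12.3 and 7.30 against 14.3 and 13.1) were as well. Lin28a, an RNA-binding protein, and Zfp42 had no site within this window. At the strongest site of the network genes where it was shared (15 genes), 2 passed the threshold by fold enrichment, beside 30.0% of all shared sites higher by it. These were Tbx3 (log2 1.17, adjusted p = 0.00264, limma) and Klf2 (0.63, adjusted p = 0.0381). Their summit reads differed by 0.53 (adjusted p = 0.0562, limma) and 0.15 (adjusted p = 0.505). By summit reads 1 passed, beside 20.7% of all shared sites. This was Mycn (0.69, adjusted p = 0.0368, limma), with 0.30 by fold enrichment (adjusted p = 0.418). Rif1 had a difference of 0.30 by fold enrichment and of -0.17 by summit reads (adjusted p = 0.467). Single-library or partial calls made up the sites of Klf5, Tcl1 and Gbx2.

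Genes known as direct SOX2-OCT4 targets in ESCs all had a site. The 6 genes held 16 sites, 8 shared and 3 DKO-only, and of the shared sites 1 was higher by summit reads (20.7% over all shared sites) and all 8 had a higher mean in DKO (91.6%). Fbxo15 (105 bp from a start) had a fold enrichment of 9.52 and 8.60 in WT and 16.8 and 17.7 in DKO. Lefty1, a NODAL antagonist, had 28.3 and 31.9 in WT and 28.3 and 28.2 in DKO, and Fgf4, the growth factor with a SOX2-OCT4 enhancer at its 3′ end, 8.43 and 10.4 in WT and 8.04 and 7.07 in DKO. Spp1 had 16 and 14.6 against 17.9 and 20.3, and Utf1 7.40 and 3.82 against 5.44 and 7.38. Zscan10 had no shared site, and its DKO-only site lay 383 bp from a start with 5.86 and 6.28. By fold enrichment Fbxo15 passed the threshold (log2 0.93, adjusted p = 0.00664, limma), while at Fgf4 (-0.31, adjusted p = 0.275), Lefty1 (-0.09, adjusted p = 0.76), Spp1 (0.32) and Utf1 (0.25) the difference did not. Summit reads at the same sites were all higher in DKO on average, from 26.7 and 32.0 to 38.5 and 37.5 at Fgf4 (log2 0.38, adjusted p = 0.134, limma), where the direction thus turned between the measures, and from 109 and 103 to 124 and 124 at Lefty1 (log2 0.22, adjusted p = 0.333). Spp1 passed by summit reads (log2 0.56, adjusted p = 0.0496).

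Most signalling genes of the LIF, FGF, WNT, BMP and NODAL pathways had a SOX2 site, and 14 of 30 (46.7%) had a shared site, beside 16.1% of all genes. Of 30 genes 24 had a site, with 88 sites (2.93 per gene) of which 35 were shared, 20 DKO-only and 1 WT-only. Fgfr2, an FGF receptor, had 30 of them (11 shared, 5 DKO-only), because 1 annotated transcript stretches its body to 3009 kb. With the body of its other transcripts (104 kb) Fgfr2 had 5 sites (2 shared, 1 DKO-only), and the list had 63 (26 shared, 16 DKO-only) or 2.1 per gene, beside 0.641 over all genes. The strongest Fgfr2 site, 991 bp from a start, had a fold enrichment of 22.3 and 23.1 in WT and 49.9 and 49.1 in DKO (log2 1.12, adjusted p = 0.0027, limma). Its summit reads were 86.1 and 86.5 in WT and 119 and 113 in DKO (log2 0.43, adjusted p = 0.0914), which did not pass the threshold. Tcf7l1, a repressor of WNT targets, had 12 sites and Etv5, an ETS factor downstream of FGF, had 12. The WT-only site, named after its values were seen, lay 1.88 kb outside the body of Ctnnb1, the gene of β-catenin, in an intron of Ulk4, with 6.53 and 4.54. Of the 35 shared sites 5 were higher by summit reads (background 20.7%), and 33 had a higher mean in DKO (91.6% over all shared sites).

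Neural progenitor genes had sites at 15 of 22 (68.2%, with 38 sites, 20 shared and 6 DKO-only), SOX family genes at 8 of 17 (47.1%), POU family genes at 6 of 13 (46.2%) and early lineage specifiers at 8 of 21 (38.1%), beside 34.0% of all genes. Sox5 had 17 sites, 7 of them shared, and Sox6 had 6. Otx2, a homeobox factor of the epiblast and forebrain, had a shared site at a start with 34.8 and 33.8 in WT and 57.0 and 56.7 in DKO (log2 0.73, adjusted p = 0.0182, limma), and summit reads of 97.4 and 106 in WT and 141 and 138 in DKO (log2 0.46, adjusted p = 0.077). Gsc, a mesendoderm homeobox factor, had 3.95 and 6.05 in WT and 6.25 and 7.17 in DKO at its strongest site, and Foxa2, a forkhead factor of endoderm, had a DKO-only site with 5.54 and 9.27. Of the 6 shared sites of early lineage specifiers 2 were higher and 2 lower by fold enrichment (30.0% and 4.06% over all shared sites), and 1 was higher and 0 lower by summit reads (20.7% and 0.156%). Ncam1, a neural adhesion molecule, had 8 sites. Pou2f3 had 5 and Pou2f1 3. Of the 20 shared neural sites 3 were higher by summit reads and 0 lower, and of the 16 SOX family sites 4 and 0, near the 20.7% and 0.156% of all shared sites.

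SOX2 sites also lay at some marker genes of other cells. Fibroblast markers, which would mark feeder cells, had sites at 5 of 16 (31.2%), among them Fn1 with 4 and Pdgfrb with 3, and B cell markers at 5 of 15 (33.3%), beside 34.0% of all genes, among them Ebf1 with 11 and Pax5 with 2. Housekeeping genes had sites at 4 of 12 and no shared site, with 4 of their 7 sites at Gapdh. Occupancy of a gene by SOX2 is no measure of its expression, so these counts do not tell which cells were present. Among HMGN genes, Hmgn2 had a shared site 10558 bp from its start (6.19 and 8.29 in WT, 8.88 and 7.09 in DKO), and Hmgn5 a DKO-only site 1529 bp from a start with 11.3 and 13.3.

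DKO-only sites were scattered over many genes. They were nearest to 1935 protein-coding genes within 50 kb, of which 695 were also nearest to a shared site, and WT-only sites were nearest to 68 genes, each with 1 site and 25 of them also nearest to a shared site. At most 4 DKO-only sites fell to 1 gene, which was so for 2010111I01Rik, Hs6st1, Pcmtd1, Rabgap1l and Vangl1. Hs6st1 encodes a heparan sulfate sulfotransferase and Vangl1 a planar cell polarity protein. Each of these 5 genes also had 1 or 2 shared sites. DKO-only sites made up 14.4% to 19.8% of the sites of every chromosome.

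Of the 5 strongest shared sites, 4 did not pass the threshold in either direction. In an intron of Abca4 (chr3:121848192-121848796) the fold enrichment was 67.0 and 55.9 in WT and 79.4 and 75.6 in DKO, and summit reads were 256 and 224 against 272 and 258 (log2 0.15, adjusted p = 0.528, limma). An intron of Sptlc2 had 52.0 and 54.8 against 50.9 and 52.6, an intron of Foxn3 had 60.6 and 65.3 against 54.6 and 54.1, and a site 45.7 kb from Klf9 had 44.1 and 63.9 against 66.6 and 60.4. None of these 4 sites passed the threshold by either measure. The intergenic site at chr9:46389850-46390491 was lower in DKO by fold enrichment, at 60.4 and 65.0 against 43.8 and 40.2 (log2 -0.58, adjusted p = 0.048, limma), while its summit reads were 162 and 173 against 212 and 196.

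Among DKO-only sites the strongest lay 201 kb from the nearest start site, that of Cntn5 (chr9:11106272-11106658), with fold enrichments of 23.4 and 30.1. The background read there from the NANOG lists was 5.47 and 4.10 in WT and at the lowest level (1) in both DKO libraries. Next came a site near Rgs9 (15.1 and 22.7), an intron of Cd80, a T cell costimulatory ligand (15.2 and 14.5), a site 170 kb from Car2 (12.1 and 15.9) and the Nr1h4 intron printed above (14.9 and 15.0). All of these also had the higher background in WT, 2.37 and 2.48 against 1.67 and 1.67 near Rgs9 and 3.42 and 3.42 against 1.51 and 1.51 in Nr1h4. The strongest WT-only sites were weaker, with 11.6 and 8.59 at chr8:52255619-52255949, 9.60 and 8.59 in an intron of Pde4b, 8.77 and 6.87 in an intron of Yeats2, 7.29 and 7.89 in an intron of Uck2 and 8.64 and 8.12 in the region 330 kb from the start of Rbfox1.

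The 5 single sites that rose most by fold enrichment all had a lower local background in DKO. The site 52.5 kb from Iqsec3 had 2.98 and 2.69 in WT and 15.8 and 18.9 in DKO (log2 2.61, adjusted p = 2.61e-04, limma), with a background of 5.15 and 6.26 in WT and 1.90 and 1.96 in DKO. Its summit reads also rose, from 16.7 and 17.9 to 38.5 and 45.7 (log2 1.28, adjusted p = 0.00649, limma). At the sites nearest to Dnase1, Lrrc4c, Ednrb and Lgi2 the fold enrichment rose by 2.40 to 2.56, and summit reads passed the threshold near Lrrc4c (log2 0.77, adjusted p = 0.0241, limma) and Lgi2 (1.36, adjusted p = 0.00558). The largest falls in fold enrichment lay in an intron of Zfyve9 and nearest to Svip, 4933436C20Rik, Fam168a and Folr4, between -1.79 and -1.36. Summit reads in the Zfyve9 intron were 24 and 16 in WT and 19 and 19.2 in DKO, and the background was 1 in both WT libraries and 4.28 and 5.87 in DKO. Of these 5 sites the one nearest to Svip was lower by summit reads as well.

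By summit reads the largest rises were a different set. A site 155 kb from Wrn went from 12.7 and 16.7 to 41.9 and 50.5 (log2 1.66, adjusted p = 0.00322, limma). An intron of Nlrp9c went from 14 and 8.97 to 32.2 and 33.7 (log2 1.55), and a site near Aurkc from 8.67 and 8.33 to 26.4 and 21.2 (log2 1.48). The sites 96.8 kb from Mettl11b and in an intron of Ptprr rose by 1.48 and 1.37. All 5 passed the threshold by fold enrichment too.

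The 12 sites lower by summit reads included 5 on chromosome 7 and 4 on chromosome 8, which held 5.13% and 4.77% of all shared sites, and NANOG was lower at each of them. The site nearest to Svip (1142 kb away, chr7:60403617-60404090) had SOX2 summit reads of 46.7 and 60.9 in WT and 11.5 and 8.66 in DKO (log2 -2.42, adjusted p = 1.72e-04, limma), and NANOG summit reads of 147 and 172 in WT and 19.9 and 18.9 in DKO (log2 -3.03, adjusted p = 0.00176). A site 13.6 kb from Zfp42 (chr8:44406002-44406509), the gene of the pluripotency marker REX1, had 32.7 and 24.3 in WT and 8.05 and 9.14 in DKO (log2 -1.72, adjusted p = 0.00312, limma), with NANOG at 119 and 122 against 26.9 and 25.3 (log2 -2.21, adjusted p = 0.00254). In both factors and at both sites the groups were far apart. The intron of Tnks had SOX2 at 24.7 and 42.9 against 13.8 and 13.0 (log2 -1.28), the intron of Gm17359 29.4 and 21.8 against 15.5 and 11.5 (log2 -0.92), and the site near Rpl21-ps14 24.7 and 23.7 against 10.3 and 17.3 (log2 -0.85). NANOG at the other 10 sites differed by -0.32 to -1.23 and passed the threshold at none.

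Part of the SOX2 sites lay in DNA that recurs in the genome. A run of 25 bases within 100 bp of the summit was shared, on either strand, with another SOX2 site at least 10 kb away at 23.7% of shared, 20.4% of DKO-only and 16.4% of WT-only sites. In windows 5000 bp away, compared with each other, it was 23.6%, 22.2% and 15.6%, so the classes stood near their flanks. Of the sites higher by summit reads 30.1% shared such a run, against 23.5% of their flanks, and 19.2% shared one with at least 20 other sites, against 11.8% of flanks. Of the 5 largest rises named above 4 shared runs, the Mettl11b site with 142 other sites, the Nlrp9c intron with 57, the Wrn site with 42 and the Aurkc site with 12. Of the strongest DKO-only sites those of Car2 and Cntn5 shared runs with 102 and 80 other sites and the Nr1h4 intron with 9. The Svip site shared them with 33, and the Lrrc4c site, among the largest rises by fold enrichment, with 233. Reads from such copies can be split or misplaced in mapping, and the part of this in the values was not tested.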

How the data were processed

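SOX2 ChIP-seq of WT and DKO ESCs was analysed from 4 deposited narrowPeak lists, and the lists of the other ESC antibodies (OCT4, NANOG, Klf4, CTCF) and of 11 further antibodies in fibroblasts and B cells entered the fits. The labels name 75 bp and 101 bp sequencing. The authors trimmed reads with cutadapt 1.16, mapped them with BWA 07.17 to mm9, marked duplicates with Picard, removed blacklisted reads and called peaks with MACS2 2.1.1.20160309 against input, library by library and not pooled (bcl2fastq 1.8.4 is also listed in the submitters' processing notes). In the deposited lists the fold enrichment is a ratio of summit pileup to local background (1 added to each, which made the authors' fold enrichment and p give whole-read pileups), and the authors' p and q are given as −log10 p and −log10 q, with the summit as an offset in bp. The files hold no read counts. Pileup and background were solved from both values, accepting whole numbers within 0.004, for all peaks of the SOX2 lists, and give the depth, which covers counting error only.

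Log2 peak numbers (plus 0.5) and median log2 fold enrichment were compared with limma 3.58.1 in R 4.3.3 over 16 antibodies with 4 libraries each, and shared sites with limma across sites, Benjamini-Hochberg adjusted. The steps were tested on simulated data. Sites, motifs and intervals were computed with Python 3.11.15, pandas 2.3.3, scipy 1.17.1 and pysam 0.24.0, plots with matplotlib 3.10.9. Start sites and gene bodies were those of GENCODE for the mm9 assembly. Named genes were all members of the core, naive and target lists and up to 4 with most sites of every other list. Named sites were the 5 strongest by mean −log10 q per class and the 5 with the largest rise and fall. WT-only sites gave 1 site to each gene, so no gene was ranked. The genes Tfcp2l1, Sox1 and Tfap2c of the lists were not matched in the annotation. Members, lists and tests were chosen with earlier results of these data known. Alternatives covered the promoter window, thresholds, merging, overlap, equal numbers of top peaks, variance models, a replicate block and each replicate left out. Thinning to equal depth and summit reads in place of fold enrichment were chosen after seeing the data, as were the shared runs of bases and the shorter body of Fgfr2.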

Additional observations from a re-analysis of the deposited data

How the results depend on the processing

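Of 118 values recomputed under other settings, 85 kept their call or stayed near their size, 10 kept their direction but missed the threshold, 23 counts or shares changed in size and 0 reversed. The rise in peak number was 0.65 to 0.74 with 1 replicate left out, and that in fold enrichment at shared sites 0.36 to 0.43. The promoter rise beyond the distal rise stayed positive but missed the threshold at a window of 2500 bp (0.15, adjusted p = 0.0776, limma), at a −log10 p of at least 10 (0.24, adjusted p = 0.0917) and with 1 replicate left out (0.22 to 0.37). With a replicate block it was 0.30 (adjusted p = 0.0865), the other 4 limma differences over antibodies kept their call, and 2442 sites were higher and 336 lower. Same-numbered WT and DKO libraries had deviations with a correlation of 0.008 over 7694 sites. This cannot tell whether same-numbered libraries were prepared together, because a shared batch need not act site by site, and the labels do not say.

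Among single sites, centring each library gave 823 higher and 1011 lower, a mean fold enrichment of at least 8 gave 196 lower, summit reads gave 12 lower, and leaving out 1 replicate gave 1523 to 1975 higher and 161 to 226 lower. WT-only sites numbered 191 at a fold enrichment of at least 4, 667 with equal numbers of top peaks and 227 to 622 with 1 replicate left out. DKO-only sites numbered 808 with equal numbers of top peaks and 4641 to 6274 with 1 replicate left out. Their promoter share was 3.02% within 500 bp, 9.23% within 2500 bp, 5.69% with equal numbers of top peaks and 4.51% to 6.15% with 1 replicate left out, and that of shared sites 2.24% within 500 bp and 8.21% within 2500 bp. The cause of these differences was not tested, apart from the smaller numbers of sites or libraries that a setting uses.

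Peak lists give no value where a site was not called, so WT-only and DKO-only sites have no measured difference. With 2 libraries per genotype the tests rest on a spread shared by antibodies or sites.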

Other observations

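Chromosome 14 stood apart from the other autosomes in the change of summit reads at SOX2 sites. Over its 346 shared sites the median difference between DKO and WT was 0.20 on the log2 scale, and 25 sites (7.23%) were higher, whereas the medians of the other autosomes ran from 0.31 on chromosome 8 to 0.45 on chromosome 6. NANOG differed by a median of -0.25 on chromosome 14 (1678 sites) against -0.10 to 0.00 on the other autosomes, OCT4 by 0.47 (440 sites) against 0.67 to 0.78, and Klf4 by -0.23 (82 sites) against -0.13 to 0.04. CTCF differed by -0.08 (1673 sites), within the -0.09 to -0.07 of the other autosomes. The SOX2 fold enrichment, which divides by the local background, differed by 0.38 on chromosome 14, against 0.35 over all shared sites, and the background itself by -0.16, against 0.01 to 0.18 on the other autosomes. Summit reads are divided by a genome-wide background, which does not correct for a chromosome that differs in copy number between cultures, and copy number was not tested. These are descriptions of lists from the same cells, and the difference between chromosomes was not tested.

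The share of shared sites higher by summit reads was 20.7% over the genome and highest on chromosomes 6 (140 of 492, 28.5%) and 19 (58 of 219, 26.5%), which were picked after their values were seen. Klf4 and CTCF peaks at SOX2 sites had few members in the WT-only class, with 3 sites each that had a peak in all 4 lists.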
